A study of Mus musculus with 8 samples.

Results

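Camk2a, Camk2b and Camk2d, which encode subunits of calcium/calmodulin-dependent protein kinase II (CaMKII), were examined as targets of Ptbp2 in the embryonic mouse cortex. Their members were the sequence tags whose midpoint fell, on the strand of the gene, inside an interval drawn around each gene: chromosome 18 from 61085000 to 61148000 (plus strand) for Camk2a, chromosome 11 from 5869000 to 5967000 (minus strand) for Camk2b, and chromosome 3 from 126299000 to 126550000 (plus strand) for Camk2d, all in mm9. These held 886 of 3098854 mapped tags, divided into 98, 549 and 239. The tags come from HITS-CLIP, in which ultraviolet light fixes a protein to bound RNA, an antibody pulls the pair down and the protected fragments are sequenced. All samples were wild-type cortex of CD1 embryos at embryonic day 18.5, with 4 libraries prepared from brain 1 and 4 from brain 2. The labels describe the 2 brains as biological replicates, so the design holds no treatment, mutant or second time point, and the comparison between brains asks how far binding recurs from one animal to the next. Each brain is 1 animal, and spread between its libraries is technical. Single libraries held 228424 to 545387 tags, 1932995 in brain 1 and 1165859 in brain 2.

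CaMKII assembles from many subunits into a ring-shaped holoenzyme whose activity, once started by calcium and calmodulin, can persist through autophosphorylation. It is best known in the brain for its part in synaptic plasticity. The alpha subunit, from Camk2a, predominates in mature forebrain excitatory neurons and accumulates after birth. The beta subunit, from Camk2b, binds actin filaments and appears earlier in development, and the delta subunit, from Camk2d, is expressed in many tissues and is much studied in the heart. The linker between the catalytic and association domains varies by alternative splicing in this family. Ptbp2 is a neuronal relative of the polypyrimidine tract binding protein Ptbp1. It contacts pyrimidine-rich RNA and often represses nearby exons, and it is abundant in the embryonic brain and declines as neurons mature.

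Camk2b carried by far the most Ptbp2 tags of the family for its length, with 5.60 tags per kb over all libraries against 1.56 in Camk2a and 0.952 in Camk2d. Scaled to depth and length, Camk2b held 1.75 ± 0.344 CPM per kb (CPM, tags per 1000000 tags of the library), Camk2a 0.496 ± 0.231 and Camk2d 0.287 ± 0.101 (SD, n = 8 libraries). Within a library, where depth cancels, Camk2b exceeded Camk2d in all 8 libraries, by 4.40-fold to 9.30-fold, and exceeded Camk2a in all 8 as well. The log2 ratio of Camk2b to Camk2d was 2.68 ± 0.39, and that of Camk2a to Camk2b was -1.98 ± 0.79 (SD, n = 8). Camk2a and Camk2d, the neighbours at the low end of this order, did not differ beyond the spread: their log2 ratio was 0.70 ± 0.78 (SD, n = 8) and was above 0 in 6 of 8 libraries. No input RNA was analysed here, so tags per kb combine binding with transcript abundance, and more RNA cannot be told apart from more binding per RNA.

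Against the whole genome the 3 loci stood at different levels. When each strand was tiled in steps of a locus' own length, Camk2b had a higher CPM than 99.2% of the 98 kb tiles that held a tag, Camk2a a higher one than 92.3% of the 63 kb tiles and Camk2d a higher one than 84.8% of the 251 kb tiles. The median tile with a tag had 10.2, 6.17 and 29.9 CPM at these lengths, against 171.9, 31.2 and 72.0 in the loci. Among the tiles with enough tags to be tested the order was different: Camk2b lay above 95.8%, Camk2d above 75.2% and Camk2a above 29.8%, so Camk2a was below the median tested tile of its length (39.3 CPM). Tiles include stretches with no gene, so these positions are only a scale.

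The tags kept to the strand of each gene, most strictly in Camk2b. In Camk2b 99.3% of the tags in the interval were on the gene's strand (exact Clopper-Pearson 95% interval 98.2 to 99.8%), with 4 tags on the other strand. The share was 87.5% in Camk2a (79.9 to 92.99%), with 14 opposite tags, and 87.9% in Camk2d (83.4 to 91.5%), with 33. In Camk2a 7 of the 14 opposite tags lay in the last 3 kb of the interval. The RefSeq gene table for GRCm38.p6, used for names alone, places Mir7220, Mir6982 and Gm46632 within Camk2a, Gm15551 within Camk2d and no gene within Camk2b, so a few tags of the first 2 could belong to other transcripts. In the 10 kb before the 5′ end there were 0 tags at Camk2a, 6 at Camk2b and 0 at Camk2d. In the 10 kb past the 3′ end there were 1, 0 and 11. The density past the end of Camk2d, 1.10 tags per kb, was no lower than the 0.952 within it, so that edge did not mark a drop. The table lists Ank2 as the neighbour on that side, but the tags past the end were not assigned to any gene.

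Camk2b, the actin-binding beta subunit gene, was the member with discrete tall sites. Tags that overlap by 1 nt or more on one strand were joined into clusters, whose height is the largest number of tags over one base. Camk2b held 6 clusters of height 10 or more, Camk2a 1 and Camk2d 0. These clusters held 21.9% of the Camk2b tags (95% interval 18.5 to 25.6%), 11.2% of the Camk2a tags (5.74 to 19.2%) and 0 of 239 Camk2d tags, which allows a share of up to 1.53%. The share over the whole series was 15.7%. Tags that overlapped no other made up 24.0% in Camk2b (20.5 to 27.8%), 41.8% in Camk2a (31.9 to 52.2%) and 52.3% in Camk2d (45.8 to 58.8%), against 38.2% in the series. A denser locus joins more of its tags by overlap alone, and the part of density in these shares was not tested. All intervals cover counting error only.

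The tallest site of the family lay in Camk2b on chromosome 11 from 5905112 to 5905150, 61.9 kb from the 5′ end of the interval. All 27 of its tags covered one base. Brain 1 gave 9, 6, 3 and 3 tags in libraries 1 to 4, and brain 2 gave 1, 3, 2 and 0. Its mean was 10.6 ± 5.01 CPM for brain 1 against 4.68 ± 3.82 for brain 2 (SD, n = 4), and the libraries overlapped. The tags took 6 distinct positions, the fullest with 9 tags, so 33.3% of the tags shared one start and end.

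That site belonged to a row of 4 clusters of height 5 or more inside one stretch of under 500 nt, from 5905112 to 5905598, which held 77 tags, or 14.0% of the locus (95% interval 11.2 to 17.2%), in all 8 libraries. Its other end was the cluster from 5905536 to 5905598, of height 20, with 13 tags in brain 1 and 12 in brain 2, spread over 13 positions and all 8 libraries. Between them lay clusters from 5905289 to 5905340 (height 11, with 8 of its 11 tags from library 1 of brain 1) and from 5905420 to 5905501 (height 6). The stretch as a whole gave 57 tags in brain 1 and 20 in brain 2. It was picked as the fullest 500-nt stretch of the locus, and its 95% interval does not allow for that choice. It is the tallest peak, past the middle of the Camk2b profile, in the plot of tags along the intervals, where its 1 kb bin held 79 tags.

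Nearer the 3′ end of Camk2b lay 2 more tall sites with equal tag counts in both brains. The cluster from 5878551 to 5878607, of height 21, held 11 tags from each brain over 15 positions, with 3, 3, 3 and 2 tags in brain 1 and 3, 2, 6 and 0 in brain 2. The cluster from 5883641 to 5883696, of height 18, held 9 tags from each, with 6, 1, 0 and 2 in brain 1 and 2, 1, 4 and 2 in brain 2. In CPM they came to 5.71 ± 1.08 and 4.36 ± 4.76 in brain 1 and 8.72 ± 7.49 and 7.75 ± 3.61 in brain 2 (SD, n = 4). Both means were thus higher in brain 2, which has fewer tags in all. Each difference was smaller than the SD of brain 2, but at 5878551 it exceeded the SD of brain 1. The fifth of the named sites, from 5939198 to 5939266 and 27.8 kb from the 5′ end, had a height of 16 and 11 and 6 tags, or 5.67 ± 3.59 and 5.17 ± 3.69 CPM (SD, n = 4). The tags were unevenly spread along the locus: of 10 equal segments counted from the 5′ end, segment 3 held 25.9%, segment 7 held 16.9%, segment 9 held 15.5% and segment 10, with the site at 5878551, held 11.8%. Segments 6 and 8 held 7.83% and 7.10%, and segment 4 held the least, 1.09%.

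Beyond these, 14 Camk2b clusters had a height of 5 to 9. They included neighbours at 22.9 kb (5944121 to 5944154, height 9), 20.95 kb (5946021 to 5946079, height 8) and 20.6 kb (5946361 to 5946407, height 8) from the 5′ end. The last took 7 of its 8 tags from library 3 of brain 1 and none from brain 2. A cluster 0.757 kb from the 3′ end (5869715 to 5869797) held 13 tags at a height of 7, 11 of them from brain 1. The 10 kb window with most tags, from 5940001 to 5950000, held 136, 92 in brain 1 and 44 in brain 2. Of 231 clusters in the locus, 32 held 4 or more tags, and 25 of these drew on both brains. Clusters of that size can draw on both by mixing of tags alone, and the share over the series was not computed.

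**Figure D1:**
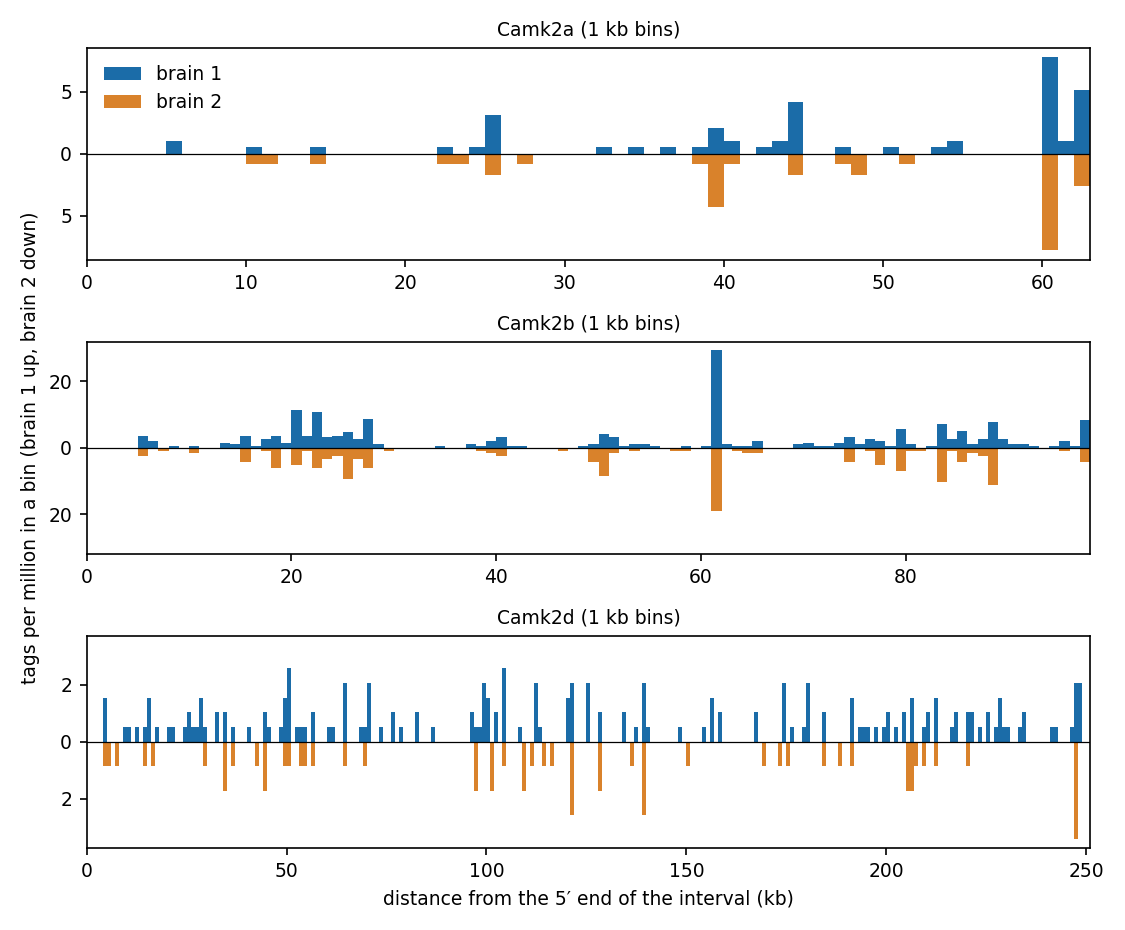
CPM in 1 kb bins along the Camk2a, Camk2b and Camk2d intervals, from the 5′ end to the 3′ end, with brain 1 drawn upward and brain 2 downward, all 4 libraries of a brain pooled. Camk2a tags are most frequent at the 3′ end, and Camk2b tags are uneven, with the fullest bin (79 tags) past the middle. Camk2d tags are scattered at low counts along the whole interval. The vertical scales differ.

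Camk2a, the alpha subunit gene, carried the largest share of its tags at the 3′ end. The last 3 kb of the interval, 4.76% of its length, held 39 of 98 tags, or 39.8% (95% interval 30.04 to 50.2%). The share was 42.2 ± 22.0% in brain 1 and 42.2 ± 16.5% in brain 2 (SD, n = 4), so the concentration was seen in both. The same stretch held 4.92% of tags in Camk2b (3.27 to 7.08%) and 1.67% in Camk2d (0.458 to 4.23%). It makes up 3.06% of the Camk2b length and 1.20% of the Camk2d length. Of the 14 opposite-strand tags of Camk2a, 7 also lay in its last 3 kb, so on these few tags the concentration was not particular to the gene's strand. Segments 7 and 8 of Camk2a held a further 18.4% and 13.3% of its tags. Positions carry no exon annotation here, so what part of the transcript this is was not determined.

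The one Camk2a cluster of height 10 or more lay at this end, on chromosome 18 from 61145924 to 61145979, 2.05 kb before the interval's 3′ edge. Its 11 tags took 9 positions and covered one base. Brain 1 gave 0, 0, 3 and 4 tags and brain 2 gave 1, 2, 1 and 0, or 3.76 ± 4.42 and 3.19 ± 2.51 CPM (SD, n = 4). Clusters from 61145716 to 61145766 (height 5) and from 61147525 to 61147600 (height 5) lay in the same 3 kb. The remaining named site, from 61110676 to 61110734, lay 25.7 kb from the 5′ end with a height of 6 and 7 tags, 6 of them from libraries 3 and 4 of brain 1. A single library decided the count of tall clusters in Camk2a: without library 3 or 4 of brain 1, or library 2 of brain 2, it was 0.

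Camk2d, the delta subunit gene and the longest of the intervals, showed scattered tags and no tall site. Its 239 tags formed 171 clusters, of which 125 were single tags, 41 held 2 or 3 tags and 5 held 4 or more. One reached a height of 5, on chromosome 3 from 126438131 to 126438182, 139.2 kb from the 5′ end, with 2 tags in brain 1 and 3 in brain 2. No segment of the interval held less than 6.69% or more than 15.9% of the tags, where those of Camk2b ranged from 1.09 to 25.9%. Camk2d segments are longer, which evens out their counts. In bins of 1 kb the contrast was smaller: the fullest 25 of 251 bins held 46.9% of Camk2d tags. The fullest 10 of 98 held 53.0% in Camk2b and the fullest 6 of 63 held 68.4% in Camk2a. Fewer tags per bin raise this share by themselves. Camk2d had 0.952 tags per kb, Camk2a 1.56 and Camk2b 5.60, and the part of this in the shares was not tested. The fullest 500-nt stretch held 10 tags, 4.18% of the locus (95% interval 2.02 to 7.56%), against 21.4% in Camk2a (13.8 to 30.9%) and 14.0% in Camk2b. A stretch of 500 nt is a smaller part of the longer Camk2d interval. Each stretch was picked as the fullest of its locus, and the 95% intervals do not allow for that choice. The most filled 10 kb window, from 126340001 to 126350000, held 17 tags, and a median window held 11.

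Exact tag ends recurred between the brains in Camk2b about as in the series and rarely in Camk2d. Of 132 distinct 5′ ends in brain 2 within Camk2b, 33 were also 5′ ends in brain 1, or 25.0% (95% interval 17.9 to 33.3%). Over the whole series the share was 18.9%. In Camk2a it was 5 of 31, or 16.1% (5.45 to 33.7%), and in Camk2d 2 of 49, or 4.08% (0.498 to 13.98%). Both Camk2d bounds lie below the series value, but a thinly covered locus offers fewer ends to meet, which was not separated from binding. Rows that repeated a position within a library made up 6.12% of tags in Camk2a, 12.6% in Camk2b and 8.37% in Camk2d, against 11.5% in the series.

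Between the brains, Camk2d was the only member whose libraries did not overlap, though it did not pass the permutation test after adjustment. Brain 1 had 91.7, 96.0, 91.4 and 97.95 CPM in libraries 1 to 4, and brain 2 held 41.1, 36.5, 55.7 and 65.7. Every library of brain 2 lay below every library of brain 1, with means of 94.3 ± 3.25 and 49.8 ± 13.4 (SD, n = 4). Among 12512 tiles of 251 kb, 5.94% showed no overlap between the brains in either direction and 2.83% in this one. The 4 libraries of brain 1 lay closer together in Camk2d than counting error gives (chi-square per degree of freedom 0.0541). Their SD therefore understates that error. The log2 change was -0.96 ± 0.20 (SE), with a two-sided exact permutation p of 0.0286, the smallest that 4 against 4 libraries allow, and 0.0857 after Benjamini-Hochberg adjustment over the 3 loci. With this test Camk2d could not reach an adjusted p under 0.05 unless another of the loci separated as well. After these values were seen, Camk2d was also fitted as 1 interval among all tiles of its length.

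In that limma voom fit Camk2d had a log2 change of -0.996 ± 0.230 (SE) in brain 2, a 1.99-fold decrease, with an adjusted p of 0.0252. Of the 12512 tiles, 41 passed an adjusted p of 0.05 (0.328%), 32 of them lower in brain 2 (0.256%), and 19 tiles had a smaller p than Camk2d. Scaling CPM by the trimmed mean over tested windows moved the log2 change of Camk2d to -0.78 and of Camk2b to -0.14. The median log2 change of all tiles was 0.02, and 90% of them lay between -0.49 and 0.56. The fitted value lay between -1.12 and -0.83 in all alternatives run, but the call did not: it was lost in 9 alternatives and kept in 4. The adjusted p was 0.0818, 0.107 and 0.0515 without libraries 1, 2 and 3 of brain 1, and 0.154, 0.246 and 0.0519 without libraries 1, 2 and 3 of brain 2. It was 0.0353 and 0.00624 without library 4 of brain 1 and of brain 2. Summing libraries whose titles share a letter gave 0.0881. These p-values measure spread between libraries of 1 animal each and say nothing of variation between animals.

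**Figure D2:**
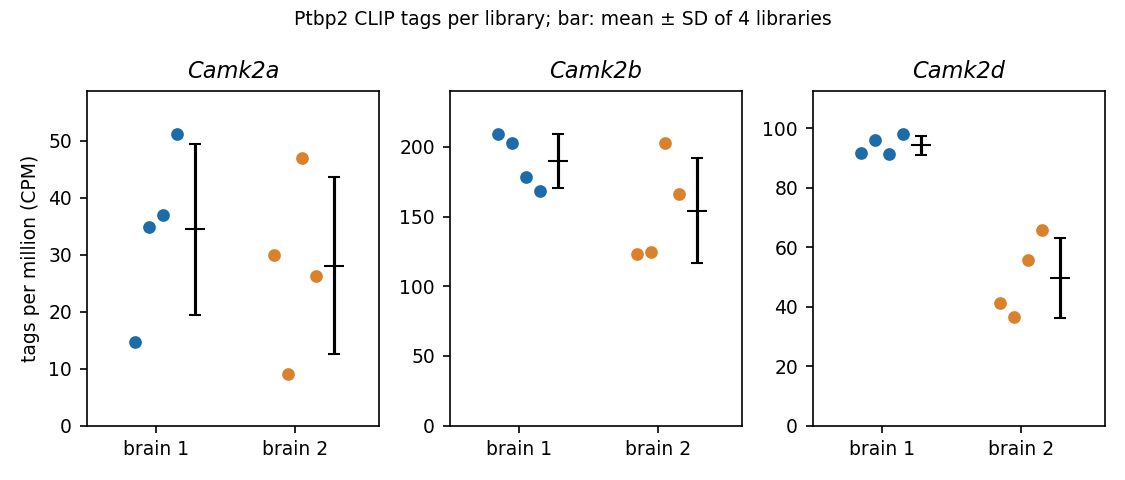
CPM of each library (points) for Camk2a, Camk2b and Camk2d, by brain, with the mean and SD of 4 libraries beside them; each panel has its own linear scale from 0. The brains overlap for Camk2a and Camk2b, whereas the 4 Camk2d values of brain 2 (36.5 to 65.7) all lie below those of brain 1 (91.4 to 97.95).

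The lower Camk2d level in brain 2 was spread over the interval and did not come from one site. Mean CPM was lower in brain 2 in all 10 segments and in 22 of 25 windows of 10 kb. The fall was as large in scattered as in clustered tags: the pooled ratio of brain 2 to brain 1 per unit of depth was 0.547 for single tags (95% counting interval 0.352 to 0.828) and 0.490 for tags in clusters of 2 or more (0.303 to 0.766). On the opposite strand of the same interval, with 21 and 12 tags, the ratio was 0.947 (0.425 to 2.02), an interval that takes in both 1 and the value on the gene's strand, 0.519 (0.379 to 0.703). The largest drop over a segment was in segment 8, from 9.38 ± 5.82 to 2.43 ± 1.66 CPM, and the smallest in segment 6, from 5.80 ± 2.31 to 5.19 ± 1.91 (SD, n = 4). Fewer cells that express Camk2d, less Camk2d RNA per cell and less binding per RNA cannot be told apart in these bulk libraries. Nor can a difference in dissection, crosslinking or library preparation, as no library holds both brains.

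**Figure D3:**
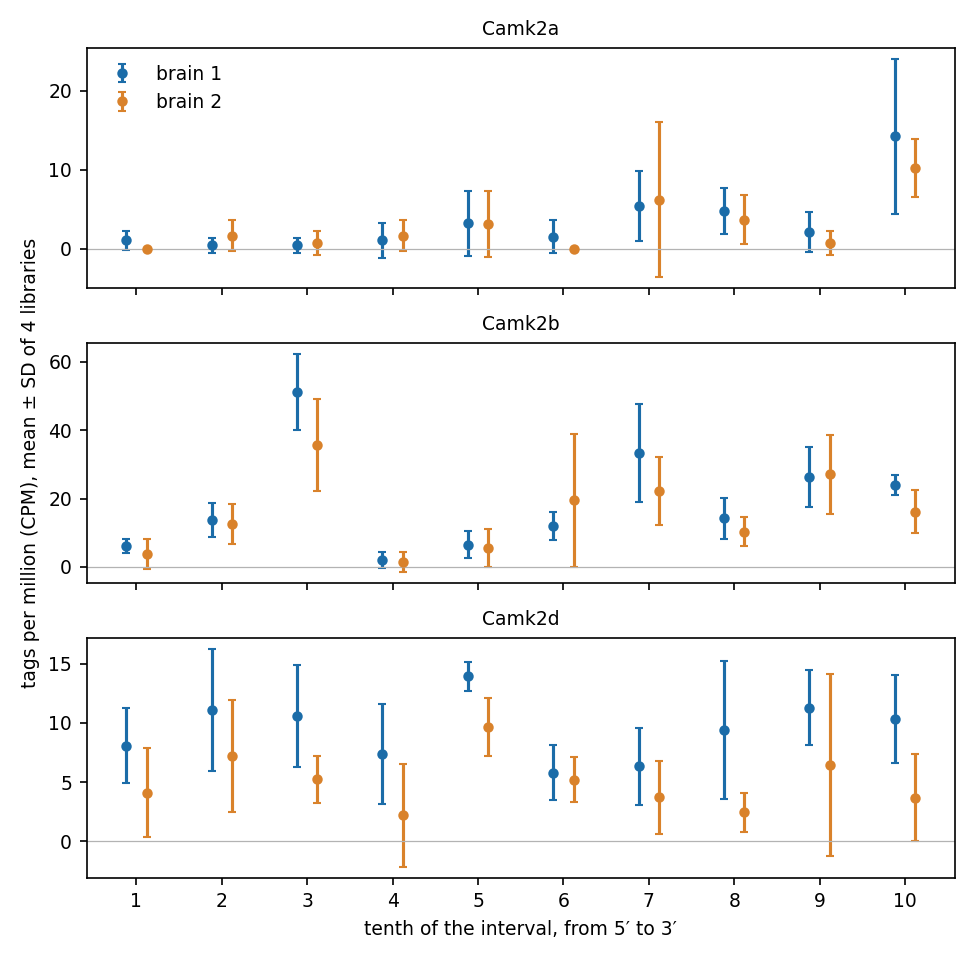
Mean CPM ± SD of 4 libraries in each of 10 equal segments of the Camk2a, Camk2b and Camk2d intervals from 5′ to 3′, brain 1 and brain 2 side by side. In Camk2d the mean of brain 2 is lower in all 10 segments, while in Camk2b it is lower in 8 and in Camk2a in 6, with overlapping error bars in most.

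Camk2b did not pass a test between the brains. Brain 1 held 209.0, 202.9, 178 and 168 CPM in libraries 1 to 4, and brain 2 held 123, 125, 202.4 and 166. Libraries 1, 2 and 4 of brain 2 lay below all of brain 1, and library 3 of brain 2 lay within its range, so the brains overlapped, as they did in all but 6.88% of the 98 kb tiles (4.74% were apart and lower in brain 2). The means were 189.6 ± 19.5 and 154 ± 37.9 (SD, n = 4), a log2 change of -0.32 ± 0.19 (SE, exact permutation p = 0.114, adjusted 0.171). In the fit over 9921 tiles of 98 kb, of which 0.393% passed, the change was -0.23 ± 0.15 (SE, limma voom adjusted p = 0.562). The 6 tall clusters together held 75 and 45 tags, a ratio of 0.995 per unit of depth (95% counting interval 0.672 to 1.46). Single tags gave 0.575 (0.377 to 0.858). These intervals overlap and leave out the spread between libraries. Both subsets were picked from these same tags, and the ratio of such subsets over the series was not computed.

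Camk2a was too thinly covered to compare. Brain 1 held 8, 16, 17 and 24 tags and brain 2 held 8, 3, 16 and 6. In CPM these were 14.7, 34.9, 37.0 and 51.1 against 29.9, 9.11, 46.9 and 26.3, and the brains overlapped, as in all but 7.2% of the 63 kb tiles (5.6% were apart and lower in brain 2). The log2 change was -0.38 ± 0.63 (SE, exact permutation p = 0.543, adjusted 0.543), and over 8846 tiles of 63 kb, of which 0.667% passed, it was -0.08 ± 0.42 (SE, limma voom adjusted p = 0.969). The sign turned without library 3 or 4 of brain 1 or library 2 of brain 2 in the tile fit, to 0.052, 0.21 and 0.35. Libraries of a brain differed from one another by more than counting gives, with a chi-square per degree of freedom of 3.42 in brain 1 and 2.84 in brain 2. In Camk2d this was 0.0541 and 1.00, and in Camk2b 0.978 and 2.94.

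**Figure D4:**
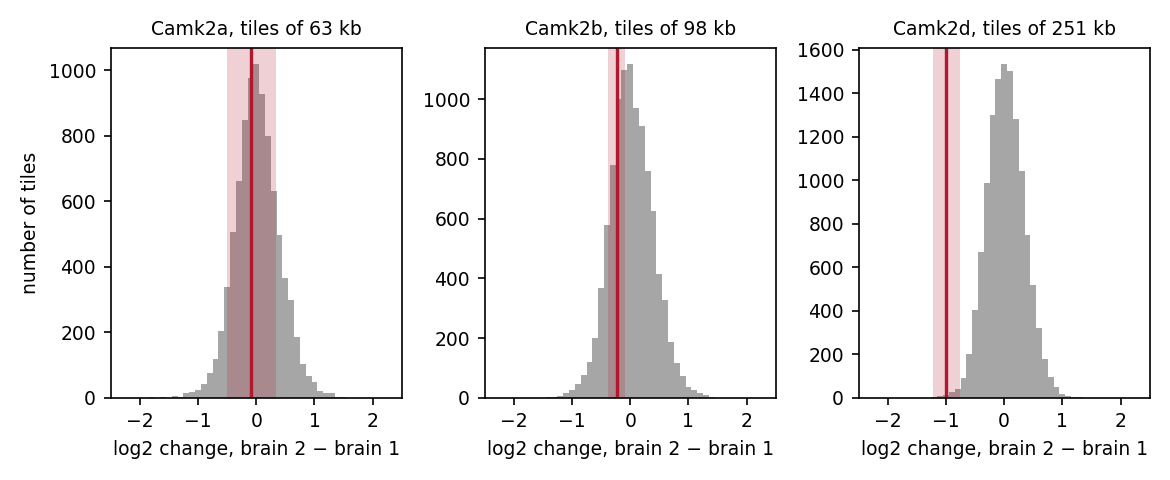
Histograms of the log2 change, brain 2 minus brain 1, over all genome tiles tested that have the length of the Camk2a (63 kb), Camk2b (98 kb) and Camk2d (251 kb) intervals, from the limma voom fits; the red line is the locus and the band its SE. Camk2a (-0.08) and Camk2b (-0.23) lie within the body of their tiles, and Camk2d (-0.996) lies below the range of -0.49 to 0.56 that holds 90% of its tiles. Scaling factors were computed for each tile length apart. Scaled by total tags instead, the fitted changes were -0.31, -0.31 and -0.95.

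The ratio of 2 loci within a library needs no scaling. The log2 ratio of Camk2b to Camk2d was 2.36 ± 0.17 in brain 1, where it ranged from 2.14 to 2.55. In brain 2 it was 2.997 ± 0.230 and ranged from 2.70 to 3.22 (SD, n = 4). The brains did not overlap, but the share of other locus pairs that separate was not computed. The ratio also reuses the Camk2d counts compared above, so it is no separate result. The difference was 0.64 ± 0.14 (SE, exact permutation p = 0.0286, the smallest possible, and 0.0857 adjusted over the 3 ratios). For Camk2a to Camk2d the difference was 0.58 ± 0.55 (SE, exact permutation p = 0.371, adjusted 0.557), and for Camk2a to Camk2b it was -0.06 ± 0.60 (SE, exact permutation p = 0.943, adjusted 0.943).

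Single 10 kb windows added no difference within the family. Of the windows centred in the intervals, 3 of 10 in Camk2b, 0 of 6 in Camk2a and 0 of 25 in Camk2d held enough tags for the limma voom test, and 0 of the 3 passed. None had an unadjusted p under 0.05 either, where 45 of 3756 windows of the genome (1.2%) passed after adjustment. The log2 changes were 0.55 ± 0.33 from 5880001, -0.28 ± 0.47 from 5900001 and -0.15 ± 0.29 from 5940001 (SE, limma voom adjusted p = 0.640, 0.884 and 0.907). The first window, which holds the site at 5883641, had 50 tags in brain 1 and 36 in brain 2. The second holds the row of 4 clusters and had 67 and 29.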

How the data were processed

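The members, lists and tests were chosen with earlier results of these data known. The authors deposited the tags as mapped, with a score that is 0 throughout and left unused, and start and end positions, read as mm9. Per the submitters' processing notes Bowtie and the builds mm8 and mm9 were named, with no version or role; treatment of repeated and multiply mapping reads was not stated in the sources used here. Tag names open with a library code that matches 1 sample title each, and 0 tags lacked one. Tags were counted by midpoint per interval, per strand-specific 10 kb window and per genome tile of each interval's length, in which the interval replaced the tiles it overlaps.

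CPM is tags per 1000000 tags of the library. Log2 CPM of the loci was compared by exact permutation (two-sided, scipy 1.17.1). Windows and tiles, which needed the CPM of 10 tags at median depth in 4 libraries and 15 tags in all, were fitted with limma 3.58.1 (voom, R 4.3.3) after scaling by a trimmed mean of log ratios (30% and 5% trimmed), with Benjamini-Hochberg adjustment. The tile fits and the tests on ratios of loci were added after the counts were seen. The fits were tested on simulated data. Sites named were the 5 tallest clusters of height 5 or more per locus, its fullest window and any window past the threshold; other Camk2b clusters and the 500-nt stretches were chosen after their values were seen. Alternatives were another scaling, no count filter, repeated rows counted once, other cluster heights, the replicate number as a block, libraries of one title letter summed and each library left out.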

Additional observations from a re-analysis of the deposited data

Results flagged for a closer look

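In 32 checks of a brain's 4 libraries, 3 found a single library standing apart, all in small Camk2a clusters. Counts of 1 tag in 1 library and 0 in the others pass this check by construction, so no chance rate applies. In brain 2, library 1 alone held tags of the cluster from 61110676 and of that from 61147525, at 3.74 CPM each, which is 1 tag, while the other libraries held 0. In brain 1, library 2 held 0 of the cluster from 61147525 and the others 2 tags each. Whether these differ from counting error was not tested.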

How the results depend on the processing

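The limits are those of few tags and of 1 animal per brain. In the fit over tiles, Camk2d changed by -1.03 without the count filter (adjusted p = 0.0601), by -0.95 with the replicate number as a block and by -1.01 with libraries of one letter summed, and its call was lost in each; leaving out 1 library gave -1.12 to -0.83, with 2 of 8 past the threshold. Tiles past it numbered 41, 9 with the block and 4 to 201 with a library left out (201 without library 4 of brain 2, at most 23 without any other except library 4 of brain 1). Same-numbered libraries did not deviate together (correlations -0.032 to -0.0063), so the numbers do not pair them, and the block changed no other call of the loci. Camk2a ranged from -0.60 to 0.35 in that fit and from -0.75 to 0.086 in CPM with a library left out, so its sign was not settled. The change of the Camk2a to Camk2b ratio turned to 0.035 with repeated rows counted once and to 0.025 with letters summed, and ranged from -0.47 to 0.32. At a height of 5 or more there were 4, 20 and 1 clusters in Camk2a, Camk2b and Camk2d, and at 20 or more 0 and 3 in the first 2. Camk2a had 0 with repeated rows counted once and 0 to 1 with a library left out. Windows past the threshold numbered 45, 8 with total scaling, 19 without the filter, 14 with repeated rows counted once, 22 with letters summed and 17 to 44 with a library left out; 0 lay in the Camk2 intervals in each. The ratios of tags per kb moved by less than their SD in every alternative.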
